A study of Mus musculus with 4 samples.

Results

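The enzymes that break down amino acids were compared between the livers of wild-type (WT) mice and of SREBP1c knockout (KO) mice. The rule that chose the 43 genes is their place in the pathways and uses no measured value, though the set was taken up with earlier results of these data known; they fall into 8 classes by the amino acid they act on. All 43 were among the 23920 genes of the deposited table, and all 43 had a mean of at least 1 FPKM, a number of fragments scaled to transcript length and library size, as did 9820 genes in all. Both groups consisted of male C57BL/6 mice aged 12 weeks, refed for 12 h after a 24 h fast, and differed in genotype (SREBP1c WT or SREBP1c KO). Each group had 2 libraries of total liver RNA. The labels name neither the allele nor the cells in which the gene was deleted. In bulk liver RNA, fewer cells of a type and less RNA per cell cannot be told apart.

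The liver is the main site at which amino acids beyond the needs of protein synthesis are degraded. Transaminases and dehydratases take off the amino group, which enters the urea cycle, and the carbon skeletons go to the citric acid cycle, to glucose or to ketone bodies. Many of these enzymes are known to rise in fasting with glucagon and glucocorticoids and to fall after a meal with insulin. The branched-chain enzymes stand apart in that their first step, a transamination, takes place mostly outside hepatocytes. SREBP1c, encoded by Srebf1, is the transcription factor through which insulin raises genes of fatty acid synthesis.

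Srebf1, the targeted gene, measured 63.7 and 58.2 FPKM in WT against 8.63 and 6.97 in KO (log2 difference −2.82, SE 0.13, limma adjusted p = 0.00172). Leaving out WT replicate 1 (−2.76) or WT replicate 2 (−2.88), or the filter on low values (−2.82), ended that call. The 9 hepatocyte markers measured summed to between 27133 and 30612 FPKM in the 4 libraries, none of them at 0. KO replicate 2 differed from the other libraries in its macrophage markers: the 10 Kupffer cell genes summed to 211 FPKM there and to 150.2, 126 and 128 FPKM in WT replicate 1, WT replicate 2 and KO replicate 1. Endothelial markers summed to 105 FPKM in KO replicate 2 and to 83.1 to 87.1 FPKM in the others, and stellate cell markers ranged from 89.3 to 104 FPKM. Bile duct markers summed to 31.2 and 29.6 FPKM in WT and to 55.6 and 47.6 FPKM in KO, with Spp1, the osteopontin gene, as the largest part of it (21.3 and 20.2 against 45.5 and 37.0). Of 7 pancreas markers Prss1, Cpb1, Pnlip, Cpa1 and Amy2b were listed at 0 in every library. The pancreas list summed to 16.8 and 14.0 FPKM in WT and to 25.6 and 15.2 FPKM in KO. Cela1 made up most of it (16.6 and 13.7 against 25.4 and 14.8). Red cell genes summed to 533 and 193 FPKM in WT and to 174 and 352 FPKM in KO, lymphocyte genes to 2.03 to 3.55 FPKM, and kidney, adrenal and fat genes to 3.54 and 2.72 FPKM in WT and to 8.78 and 7.32 FPKM in KO, of which the lipid droplet gene Cidec made up most (3.09 and 2.23 against 8.41 and 6.75). The part of these other cells in the results below was not tested.

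No member passed the test of KO against WT, and most lay slightly lower in KO. The log2 differences on the log2(FPKM + 1) scale, with negative values for lower levels in KO, ran from −0.42 for Uroc1 to 0.57 for Oat, with a median of −0.10 against 0.02 over all 9820 genes. Of the 43 members 33 had a negative difference and 10 a positive one, where 45.4% of all genes were negative. The 9 hepatocyte markers measured had a median of −0.08, with 5 negative and 4 positive differences. The members were also more abundant, with a median level of 82.7 FPKM against 7.59 FPKM over all genes tested. In 19 members both KO libraries lay under both WT libraries (16.4% of all genes did), in 3 both KO libraries lay above both WT libraries (22.4% of all genes), and in 21 the groups overlapped. At an adjusted p under 0.05 limma called 0 members, and 7 of all genes tested (0.0713%). The smallest adjusted p of a member was 0.423. At an unadjusted p under 0.05 there were 2 members lower in KO, Uroc1 and Pcca (3.25% of all genes), and 1 higher, Oat (4.50% of all genes). For 41 of the 43 members the 95% interval of the log2 difference stayed within −1 and 1, and the 2 with wider intervals were Tat and Sds. Without WT replicate 2 the median of the members moved from −0.10 to −0.03.

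**Figure D1:**
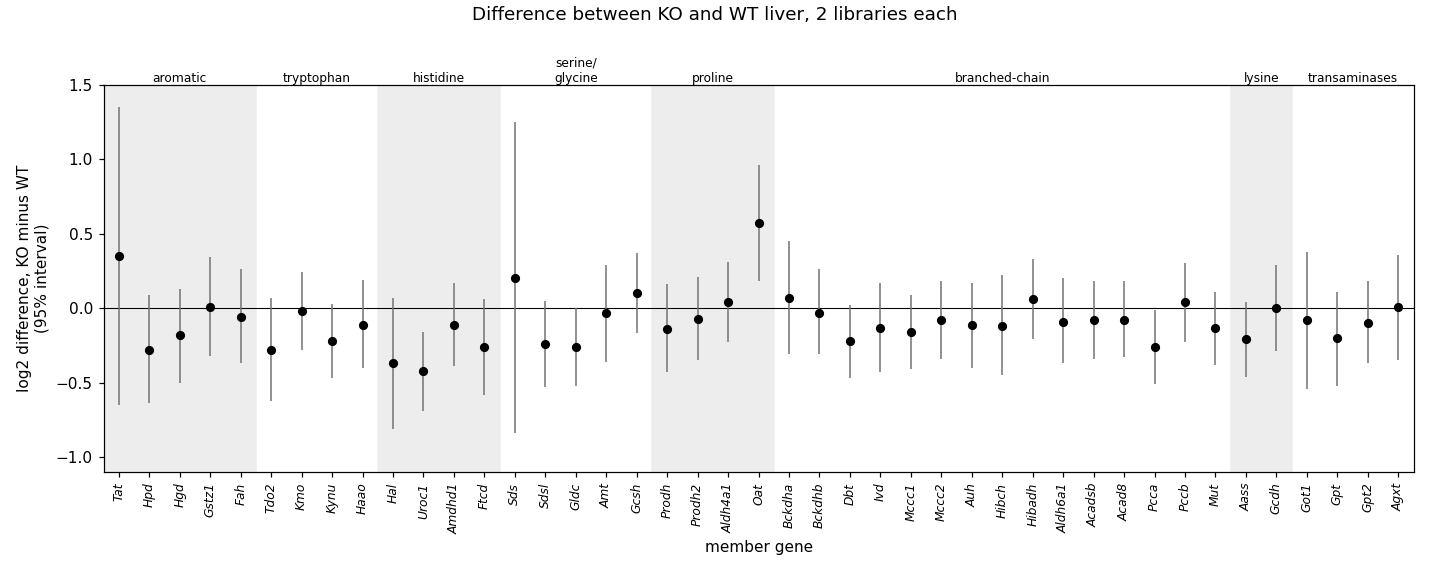
Log2 difference between KO and WT (KO minus WT, on log2(FPKM + 1)) for each of the 43 members, grouped by amino acid class; points are the limma estimates from 2 libraries per group and bars their 95% intervals. Only the intervals of Uroc1, Pcca and Oat leave out 0, and those of Tat and Sds are the widest.

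At or under a log2 difference of −0.1 lay 48.8% of the members and 22.4% of all genes, while at or under −0.3 the shares were 4.7% and 4.6%. Relative to the WT mean, the members had medians of −0.10 and −0.11 in the KO libraries and of −0.06 and 0.06 in the WT libraries. The distance between the 2 libraries of a group had a median of 0.13 over the members in WT and of 0.09 in KO.

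**Figure D2:**
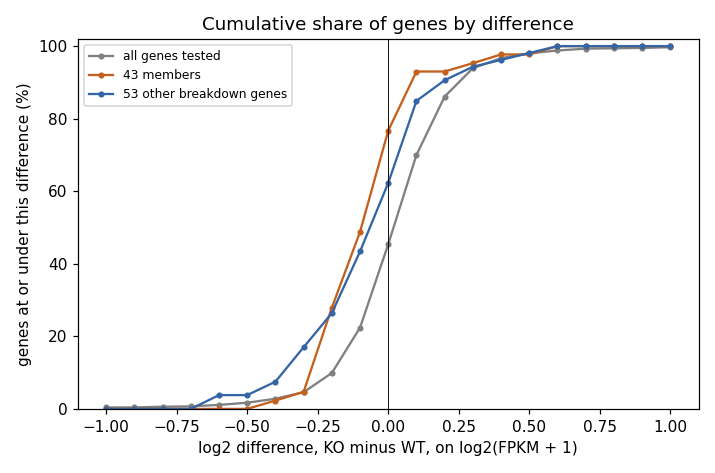
Cumulative share of genes (percent, vertical axis) at or under a given log2 difference between KO and WT (horizontal axis) for the 43 members, for 53 other genes of amino acid breakdown and for all 9820 genes tested. The members reach 76.7% at a difference of 0, the other breakdown genes 62.3% and all genes 45.4%.

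Histidine breakdown was the class with the lowest median (−0.31). All 4 of its enzymes had both KO values under both WT values (16.4% of all genes did), though none passed the test. Uroc1 encodes urocanate hydratase, the second enzyme of the pathway (chromosome 6, 90333239 to 90364551, GRCm38, the assembly of mm10). It had 119.9 and 119 FPKM in WT against 86.2 and 92.3 in KO. The WT libraries were almost equal and both KO libraries lay 25.4% under them by the means (log2 difference −0.42, SE 0.11, adjusted p = 0.423). With any 1 library left out the difference stayed between −0.47 and −0.37, at adjusted p from 0.139 to 1.000.

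Hal, histidine ammonia lyase, which opens the pathway by releasing ammonia from histidine, had 119 and 161 FPKM in WT against 98.2 and 117 in KO (log2 difference −0.37, SE 0.18). Its WT libraries stood further apart (0.43 on the log2 scale) than the 2 group means. Leaving out WT replicate 2 gave −0.15 for Hal, and leaving out WT replicate 1 gave −0.59. Ftcd, the bifunctional enzyme that hands the last carbon of the ring to folate, had 153 and 168 FPKM in WT against 144 and 124 in KO (−0.26, SE 0.13). Amdhd1, imidazolonepropionase, the step between Uroc1 and Ftcd, had 84.2 and 94.2 FPKM in WT against 83.9 and 81.4 in KO (−0.11, SE 0.11), the smallest difference of the class. Hal and Amdhd1 are neighbours on chromosome 10, with 6576 bases between them. Without WT replicate 2 the class median was −0.17.

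**Figure D3:**
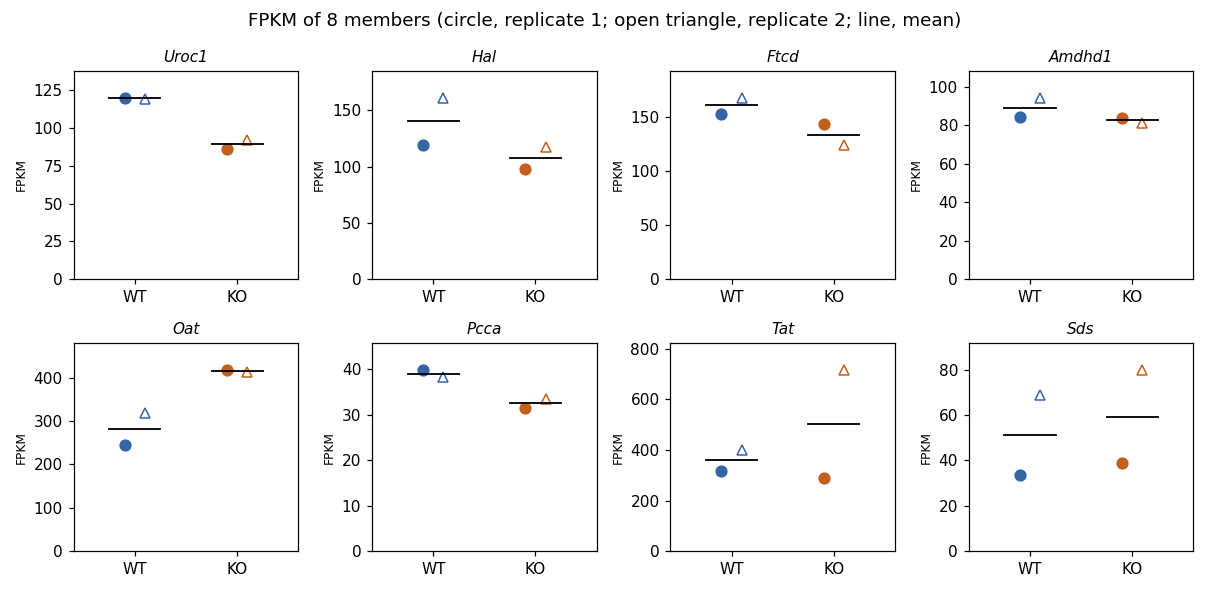
FPKM (vertical axes, from 0) of 8 members in each library: circles are replicate 1, open triangles replicate 2 and lines the group means. The 4 histidine enzymes and Pcca are lower in both KO libraries, Oat is higher in both, and Tat and Sds spread widely within a group.

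The promoter sequences of Uroc1 and Ftcd are shown because their class had the lowest median, and that of Oat because it is the member with the largest positive difference. All 3 come from RefSeq (GRCm38.p6), are read 5′ to 3′ on the strand of the gene and end before the first base of the gene; capitals mark a match to a motif searched. They lie at chr6:90333039-90333238 (plus strand, 200 bases), chr10:76575398-76575647 (plus strand, 250 bases) and chr7:132576399-132576648 (minus strand, 250 bases).
Uroc1: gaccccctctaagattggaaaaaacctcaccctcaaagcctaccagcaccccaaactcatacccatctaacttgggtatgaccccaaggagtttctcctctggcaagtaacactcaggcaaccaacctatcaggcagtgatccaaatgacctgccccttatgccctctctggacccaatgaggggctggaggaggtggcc
Ftcd: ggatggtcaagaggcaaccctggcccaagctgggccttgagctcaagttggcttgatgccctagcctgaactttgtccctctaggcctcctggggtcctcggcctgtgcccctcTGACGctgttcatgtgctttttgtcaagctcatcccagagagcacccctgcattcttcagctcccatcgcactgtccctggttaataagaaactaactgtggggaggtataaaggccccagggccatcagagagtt
Oat: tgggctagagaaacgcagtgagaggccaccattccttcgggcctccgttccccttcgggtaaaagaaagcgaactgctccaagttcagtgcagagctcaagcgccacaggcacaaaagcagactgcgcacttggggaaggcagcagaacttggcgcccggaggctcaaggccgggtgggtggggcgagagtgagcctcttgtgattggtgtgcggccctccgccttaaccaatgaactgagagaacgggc

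Over the 250 bases before each start, 37 of the members matched a window of the RefSeq table, with 41 windows. Dbt, Gpt, Kynu, Mut, Sds and Sdsl had none. Both strands were searched. The sterol regulatory element, written TCACNCCAC, was in 0 of the 41 windows and in 1.1% of all 32851 windows. The E-box CACGTG was in 1 window, that of Mccc2 (2.4% against 6.0% of all windows). TGACG, the core of the cyclic AMP response element, was in 5 windows (12.2% against 17.8%), those of Aass, Acadsb, Ftcd, Gstz1 and Pcca. The glucocorticoid receptor core TGTTCT was in 4, those of Agxt, Bckdhb, Haao and Pccb (9.8% against 16.1%), and the FOXO site TGTTTAC in 1, that of Hibadh (2.4% against 3.2%). In the printed sequences the match is the TGACG of Ftcd. These windows are short, a match is not a binding site, and the lack of one says only that these letters are not in the window.

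Among the enzymes of proline and ornithine, Oat stood out with the largest positive difference of all members. Oat encodes ornithine aminotransferase of the mitochondria, which links ornithine to glutamate and proline and is known from the hepatocytes around the central vein (chromosome 7, 132557475 to 132576398). It had 246 and 318 FPKM in WT against 417 and 413 in KO, a 1.47-fold higher mean. The KO libraries were nearly equal and both above the WT libraries, which themselves differed by 1.29-fold (log2 difference 0.57, SE 0.16, adjusted p = 0.476). Leaving out WT replicate 1 gave 0.38, and leaving out WT replicate 2 gave 0.75.

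The other 3 enzymes of the class overlapped between the groups. Prodh, proline dehydrogenase, had 49.9 and 56.0 FPKM in WT against 45.2 and 50.9 in KO. Prodh2, which acts on hydroxyproline, had 68.6 and 77.8 in WT against 68.6 and 70.5 in KO. Aldh4a1, the dehydrogenase that turns the product of both into glutamate or its hydroxy form, had 118 and 122 in WT against 128 and 119 in KO. Their log2 differences lay between −0.14 and 0.04, so Oat was the only one of the 4 whose KO and WT values were apart.

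The tyrosine pathway held the most abundant member and one of the most variable. Hpd, the dioxygenase of 4-hydroxyphenylpyruvate, was the highest of the 43 with a mean of 1264 FPKM. It had 1412 and 1358 FPKM in WT against 1202 and 1083 in KO, lower in both KO libraries (log2 difference −0.28, SE 0.15). Hgd, homogentisate dioxygenase, the step after it, was also lower in both, with 283 and 269 FPKM in WT against 259 and 227 in KO (−0.18, SE 0.13). The last steps of the pathway overlapped: Gstz1, maleylacetoacetate isomerase, had 418 and 429 in WT against 458 and 399 in KO, and Fah, fumarylacetoacetase, had 354 and 391 in WT against 346 and 368 in KO.

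Tat, tyrosine aminotransferase, which feeds this pathway, is a classic target of glucocorticoids. It had 319 and 400.0 FPKM in WT against 289.6 and 715 in KO. KO replicate 1 was the lowest and KO replicate 2 the highest of the 4 libraries, 2.47-fold apart. The log2 difference of 0.35 (SE 0.41, adjusted p = 0.872) therefore came with a 95% interval from −0.65 to 1.35. Without KO replicate 2 it was −0.30, and without KO replicate 1 it was 1.00. Leaving out KO replicate 1 was the one setting under which a member was called. Calls over all genes rose under it too.

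**Figure D4:**
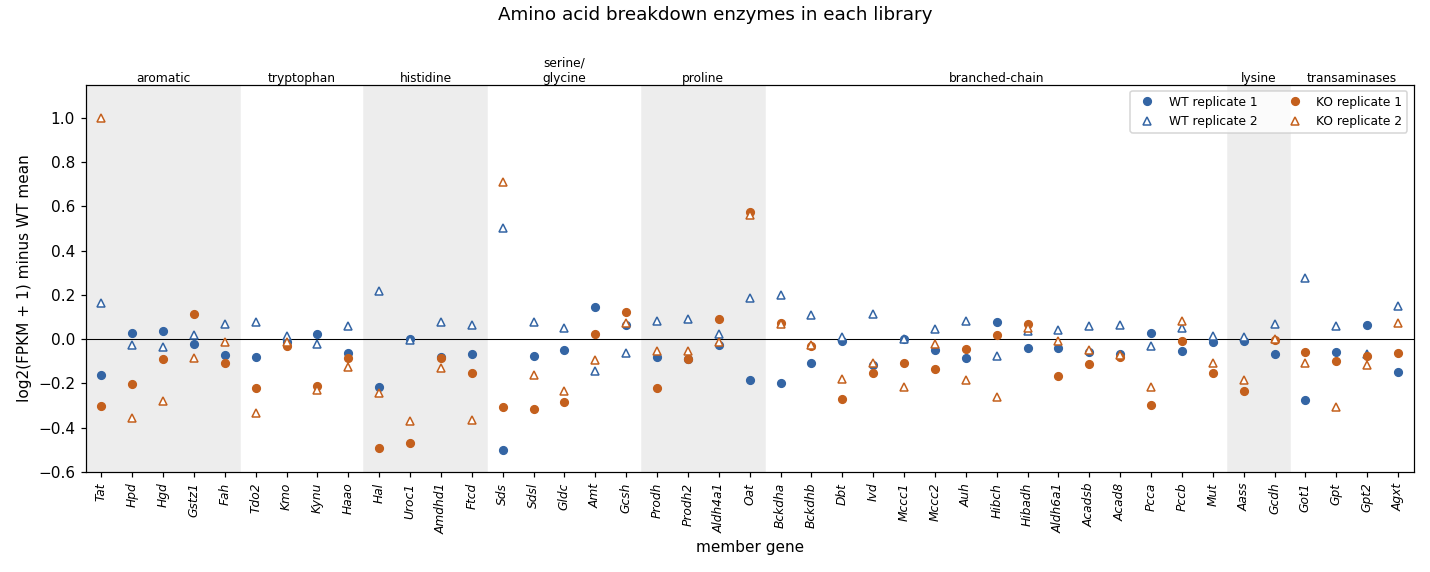
Each member in each library as log2(FPKM + 1) minus the WT mean of that gene (vertical axis), grouped by amino acid class; circles are replicate 1 and open triangles replicate 2, blue for WT and orange for KO. Most points lie within 0.4 of the WT mean, and the highest are Tat and Sds in KO replicate 2 and Oat in both KO libraries.

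All 4 tryptophan enzymes had negative differences (45.4% of all genes did), and the class median was −0.16. In 3 of them both KO libraries lay below both WT libraries (16.4% of all genes). Tdo2, tryptophan dioxygenase, the entry step in liver and the second most abundant member, had 689 and 769 FPKM in WT against 624 and 577 in KO (log2 difference −0.28, SE 0.14, adjusted p = 0.694). Kynu, kynureninase, had 60.1 and 58.2 FPKM in WT against 50.8 and 50.3 in KO (−0.22, SE 0.10). Both pairs of Kynu were tight, and the distance between them was larger than that within either.

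Haao, which opens the ring of 3-hydroxyanthranilate on the way to NAD, had 267 and 290.2 FPKM in WT against 262 and 255 in KO (−0.11, SE 0.12). Kmo, the monooxygenase that hydroxylates kynurenine, differed least, with 146 and 149 FPKM in WT against 144 and 146 in KO (−0.02, SE 0.11, 95% interval −0.28 to 0.24).

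The serine and glycine enzymes were mixed, with 3 negative and 2 positive differences and a median of −0.03. Sds, serine dehydratase, which makes pyruvate from serine and is known to be raised by fasting and a high-protein diet, was uneven within both groups. It had 33.8 and 68.9 FPKM in WT against 38.9 and 79.7 in KO. Replicate 2 was about double replicate 1 in both groups (2.04-fold in WT and 2.05-fold in KO), and the groups overlapped (log2 difference 0.20, SE 0.43, adjusted p = 0.934). The sign turned without WT replicate 1 (−0.30) and without KO replicate 2 (−0.31). Sdsl, its paralogue, lies 3721 bases from Sds on chromosome 5 and was the least abundant member. It had 10.3 and 11.6 FPKM in WT against 8.62 and 9.71 in KO (−0.24, SE 0.12).

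The glycine cleavage system splits glycine in the mitochondria and is built from 4 proteins. Its decarboxylase Gldc had 85.1 and 91.1 FPKM in WT against 72.2 and 74.6 in KO, lower in both KO libraries (log2 difference −0.26, SE 0.11, adjusted p = 0.644). Its aminomethyltransferase Amt overlapped, with 47.0 and 38.3 FPKM in WT against 43.1 and 39.7 in KO. The lipoyl carrier Gcsh was slightly higher in both KO libraries, with 82.0 and 75.1 FPKM in WT against 85.5 and 82.6 in KO (0.10, SE 0.11). The dehydrogenase Dld, which this system shares with the branched-chain complex and is no member, had 68.1 and 65.7 FPKM in WT against 53.8 in each KO library (−0.31, SE 0.10, adjusted p = 0.570). The subunits of this complex therefore lay on both sides of 0, and none passed.

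The 15 branched-chain enzymes had log2 differences from −0.26 to 0.07: 12 were negative and 3 positive, the median was −0.09, and every 95% interval stayed within −1 and 1. In 5 both KO libraries were below both WT libraries (16.4% of all genes), in 1 both were above (22.4% of all genes), and in 9 the groups overlapped. Pcca, the biotin-carrying subunit of propionyl-CoA carboxylase, had the largest difference of the class. It had 39.8 and 38.2 FPKM in WT against 31.6 and 33.4 in KO (log2 difference −0.26, SE 0.10, adjusted p = 0.631). Its partner subunit Pccb overlapped between the groups, with 68.5 and 73.7 FPKM in WT against 70.7 and 75.3 in KO (0.04, SE 0.11). Mut, methylmalonyl-CoA mutase, which works after the carboxylase, had 48.3 and 49.2 FPKM in WT against 43.7 and 45.1 in KO (−0.13, SE 0.10).

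The branched-chain ketoacid dehydrogenase is the committed step for leucine, isoleucine and valine, and differences between its subunits were not tested. Dbt, its acyl-transferring core, had 27.0 and 27.3 FPKM in WT against 22.4 and 23.9 in KO (−0.22, SE 0.10). Bckdha, its E1 alpha subunit, had 87.0 and 115 FPKM in WT against 105 in each KO library. Bckdhb, the beta subunit, had 32.2 and 37.7 FPKM in WT against 34.1 and 34.3 in KO. For these 2 the KO libraries sat between the WT libraries.

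On the leucine branch, Ivd, isovaleryl-CoA dehydrogenase, had 68.1 and 80.2 FPKM in WT against 66.5 and 68.5 in KO. Mccc1, the biotin-carrying subunit of methylcrotonyl-CoA carboxylase, had 22.6 FPKM in each WT library and 20.9 and 19.3 FPKM in KO, lower in both (−0.16, SE 0.10). Its partner Mccc2 overlapped, with 32.0 and 34.3 in WT against 30.1 and 32.6 in KO. Auh, the hydratase that follows, had 20.6 and 23.2 in WT against 21.1 and 19.1 in KO.

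The enzymes of valine and isoleucine had small differences between the groups, and the widest 95% interval was −0.45 to 0.22, that of Hibch. For valine, Acad8, isobutyryl-CoA dehydrogenase, had 18.9 and 20.7 FPKM in WT against 18.6 and 18.8 in KO, lower in both KO libraries. Hibch, which removes the CoA, had 67.8 and 60.8 in WT against 65.1 and 53.5 in KO. Hibadh, the dehydrogenase after it, was the class member with KO above WT in both libraries, at 155 and 163 in WT against 167 and 164 in KO (0.06, SE 0.11). Aldh6a1, the last step before propionyl-CoA, had 108 and 114 in WT against 98.6 and 110.2 in KO, and Acadsb, the dehydrogenase of the isoleucine branch, 32.5 and 35.3 in WT against 31.3 and 32.8 in KO. None of these 5 had a log2 difference beyond 0.12 in size.

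Of the 2 lysine enzymes, Aass, the bifunctional first enzyme, was lower in both KO libraries, with 88.2 and 89.4 FPKM in WT against 75.3 and 77.9 in KO (log2 difference −0.21, SE 0.10, adjusted p = 0.684). Gcdh, glutaryl-CoA dehydrogenase, which lysine and tryptophan breakdown share, had the smallest difference of all members as a gene, with 222 and 243 FPKM in WT against 232 and 233 in KO. Its 2 transcript rows lay on opposite sides of 0. The row of NM_001044744 had 139 and 155 FPKM in WT against 122 and 124 in KO (−0.25, SE 0.11, adjusted p = 0.720). The row of NM_008097 had 83.0 and 88.1 FPKM in WT against 109.6 and 108 in KO (0.35, SE 0.10, adjusted p = 0.627 over 11494 rows). The first row thus made up 62.6% and 63.8% of the gene in WT and 52.8% and 53.4% in KO. Both rows were apart between the groups and neither passed the test. How fragments were shared between the transcripts is not given in the sources used here.

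**Figure D5:**
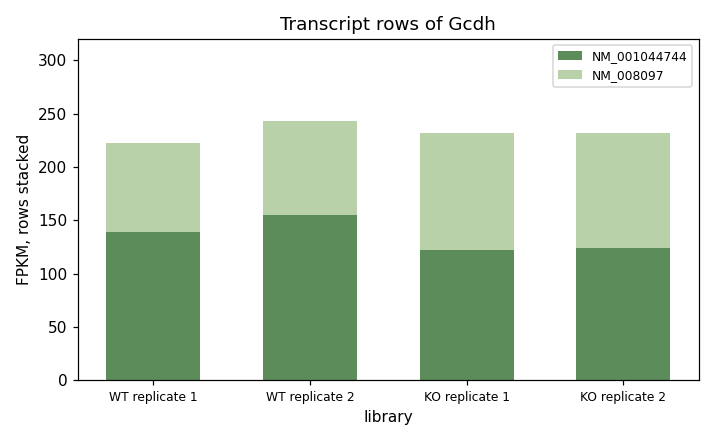
FPKM of the 2 deposited transcript rows of Gcdh, stacked, in each library (vertical axis from 0). The stack height is 222 to 243 FPKM in all 4 libraries, while the lower part is 139 and 155 in WT against 122 and 124 in KO.

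Gcdh was 1 of 4 members with several rows; the other 39 had 1. In Gstz1 and Hgd a single row held at least 95.9% of the gene in every library. Kynu was divided about evenly between NM_001289593 (30.0 and 28.7 FPKM in WT, 22.1 and 25.2 FPKM in KO) and NM_027552 (28.6 and 28.4 in WT, 27.7 and 23.9 in KO), and both rows were lower in both KO libraries.

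Transaminases that serve several amino acids had a median of −0.09 and none passed. Gpt, alanine aminotransferase of the cytosol, had 171 and 185 FPKM in WT against 166 and 143 in KO, and Gpt2, its mitochondrial counterpart, had 106 and 97.2 in WT against 96.5 and 93.8 in KO. Both were lower in both KO libraries, with log2 differences of −0.20 (SE 0.13) and −0.10 (SE 0.11). Agxt, which in liver converts glyoxylate to glycine, had 137 and 169 FPKM in WT against 146 and 160.1 in KO, with equal means. Got1, cytosolic aspartate aminotransferase, had 34.6 and 51.2 FPKM in WT against 40.4 and 39.0 in KO, with both KO libraries between the WT libraries.

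Another 55 genes of amino acid breakdown are no members. Dao and Tdh were listed at 0 in every library, and of the 53 measured genes 33 were below 0 in their difference and 20 above, at a median of −0.04. Of these 18 were lower in KO without overlap (16.4% of all genes) and 7 higher (22.4% of all genes). Limma called 0 of the 53, with 6 lower and 1 higher at an unadjusted p under 0.05 (3.25% and 4.50% of all genes). At or under a log2 difference of −0.3 lay 17.0% of these genes and 4.7% of the members. The 6 genes with the smallest p were Ccbl2, Ido2, Etnppl, Acmsd, Abat and Dld. Ido2, an indoleamine dioxygenase, had 44.1 and 42.5 FPKM in WT against 33.1 and 29.6 in KO (log2 difference −0.46, SE 0.11, adjusted p = 0.403). Acmsd, which draws the pathway away from NAD, had 10.1 and 9.04 FPKM in WT against 7.21 and 4.77 in KO (−0.62, SE 0.18). Ccbl2, a kynurenine aminotransferase, lay the other way with 76.8 and 75.2 FPKM in WT against 119 and 104 in KO (0.55, SE 0.12, adjusted p = 0.326). It was the most separated of the 53 genes and higher in both KO libraries.

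Beside Dld, the remaining 2 were Abat, the transaminase of gamma-aminobutyrate, and Etnppl, a lyase of phosphoethanolamine. Abat averaged 103 ± 5.32 FPKM in WT against 80.6 ± 0.273 in KO (SD, n = 2), a log2 difference of −0.35 (SE 0.11), and Etnppl had 26.6 and 30.5 FPKM in WT against 21.6 and 14.9 in KO (−0.64, SE 0.19). Both were lower in both KO libraries and neither passed. With a KO library left out, calls rose among the 53 genes, and they rose over all genes too.

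Genes that are known to regulate amino acid breakdown, or to report on glucocorticoid and cyclic AMP signals, had a median of 0.23. Of 17 listed, 15 were measured, 12 with a positive and 3 with a negative difference (45.4% of all genes were negative). The other 2, Ppargc1a and Cebpa, had means under 1 FPKM and enter none of these counts. Both were lower in both KO libraries. Ppargc1a had 0.654 and 0.704 FPKM in WT against 0.298 and 0.374 in KO, and Cebpa 0.244 and 0.277 against 0.238 and 0.190. In KO 8 were higher (22.4% of all genes) and 1 lower (16.4%) without overlap. Limma called 0, with 5 higher at an unadjusted p under 0.05 (4.50% of all genes). Cebpb, a transcription factor of the acute phase and of gluconeogenesis, had 45.9 and 53.5 FPKM in WT against 72.0 and 128 in KO (0.94, SE 0.27, adjusted p = 0.484). Tsc22d3, a glucocorticoid-induced gene, had 38.7 and 57.1 in WT against 65.2 and 82.1 in KO. Per1 had 0.469 and 0.794 in WT against 1.22 and 2.24 in KO. Its mean of 1.18 FPKM passed the minimum of 1 FPKM only through the KO values. Per1 is counted among the 8 higher without overlap and among the 5 at an unadjusted limma p under 0.05. In Cebpb, Tsc22d3 and Per1, KO replicate 2 was the highest library, as it was for Tat and Sds. It also had the highest sum of Kupffer cell markers, and a link between these values was not tested. Fkbp5, another glucocorticoid-induced gene, had 4.43 and 4.17 in WT against 5.32 and 5.65 in KO, and Crem, a cyclic AMP-responsive modulator, averaged 8.84 ± 0.230 in WT against 12.2 ± 1.73 in KO (SD, n = 2). Atf4, which responds to amino acid shortage, had 56.9 and 58.6 in WT against 74.9 and 61.2 in KO. The highest library was KO replicate 2 for Fkbp5 but KO replicate 1 for Crem and Atf4. Relative to the WT mean, the list had a median of 0.14 in the first KO library and 0.33 in KO replicate 2.

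Position in the liver lobule is a further property that the rule for the members does not use. Hal, Uroc1 and Sds are known from periportal hepatocytes and Oat from pericentral ones. The other members are given no zone here, and Sds overlapped between the groups (log2 difference 0.20). Of 16 periportal markers that are no members, 14 had a negative difference (45.4% of all genes) and the median was −0.33. In KO 9 were lower (16.4% of all genes) and 0 higher (22.4%) without overlap, and limma called 0, with 8 lower at an unadjusted p under 0.05 (3.25% of all genes). Cps1, the entry enzyme of the urea cycle, was the most separated of them, with 619.5 and 621 FPKM in WT against 362 and 399.6 in KO (−0.70, SE 0.13, adjusted p = 0.246). Arg1, arginase, had 717 and 937 in WT against 506 and 627 in KO, and Asl, argininosuccinate lyase, had 304 and 332 in WT against 266 and 211 in KO. The largest difference of the list was positive, that of Pck1, a gluconeogenic enzyme named here after its values were seen, with 170.0 and 300.0 FPKM in WT against 229 and 994 in KO (1.08, SE 0.67). The groups overlapped in Pck1, and KO replicate 2 was the highest library. Etnppl and Gls2 stand on this list as well as among the other breakdown genes. The 16 pericentral markers had 8 negative (45.4% of all genes) and 8 positive differences and a median of 0.02. Without overlap 4 of them were higher in KO (22.4% of all genes) and 2 lower (16.4%). Limma called 0, with 1 higher at an unadjusted p under 0.05 (4.50% of all genes). Whether zonal position accounts for the differences of the members was not tested.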

How the data were processed

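The authors deposited 1 table of FPKM values, with 1 value per RefSeq transcript and library (33170 rows), per the file headers. The mm10 build and the aligners Bowtie and TopHat appear, with no version, in the submitters' processing notes. Not given in the sources used here are the FPKM program, the annotation release and whether strand was used. The titles of the samples gave the group and the replicate number. Nothing states that the samples came from separate animals, so p-values measure the spread between these samples only, which may be technical.

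Rows were summed per gene number to 23920 genes; 56 rows whose symbol had become a date were renamed through that number, and 23847 genes matched the RefSeq table of GRCm38.p6 used for coordinates. FPKM holds no fragment numbers. The steps of low values implied about 20.7 to 22.8 M fragments per library, but only 54.6% to 57.7% of those values lay within 0.1 of a whole fragment, so no count test was run. Log2(FPKM + 1) was compared across all genes with a mean of at least 1 FPKM in limma 3.58.1 (R 4.3.3) with an intensity trend and Benjamini-Hochberg adjustment over 9820 genes at a threshold of 0.05. Fold changes on this scale understate the change of low genes. Medians and counts over lists are descriptions with no test. The limma step was first tested on simulated data. Promoter windows came from RefSeq (GRCm38.p6).

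The members, gene lists, motifs and tests were chosen with earlier results of these data known. Named were Srebf1, every member and, of each other list, up to 6 genes with the smallest p. Gls2, which 2 lists hold, and genes listed at 0 were named beside these. Pck1, Ass1, Ppargc1a and Cebpa fall outside this rule and were named after their values were seen. A gene that this rule names is not reported here. Each library was left out in turn, and the fit was repeated with the replicate number as a block, with unsummed rows, with a robust prior or no trend, after quantile or upper-quartile scaling, with a pseudocount of 0.5 or 0.1, and with a minimum of 5 FPKM or none. Sums, lists and plots used python 3.11.15 with pandas 2.3.3, numpy 2.4.6 and matplotlib 3.10.9.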

Additional observations from a re-analysis of the deposited data

How the results depend on the processing

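The count of members called stayed at 0 in 13 of the 14 alternatives and was 1 without KO replicate 1 (Tat, 1.00); over the libraries left out it ran from 0 to 1. The 7 genes called in all became 4 with quantile scaling, 11 with a pseudocount of 0.1, 0 with no filter, 3 with a minimum of 5 FPKM, 15 with a robust prior, and 1 to 306 with a library left out. With the replicate number as a block 19 genes and 0 members were called. The numbers in the labels mark no shared animal or day, and over all genes the library differences of the 2 groups correlated at 0.17. Leaving out a library makes separation easier by construction: members lower without overlap went from 21 to 33 and those higher from 4 to 12. Other breakdown genes called ran from 0 to 4. With 1 library left in a group, that library is assumed to vary like the other group.

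Over the libraries left out, the median ran from −0.15 to −0.03 for all members, −0.13 to 0.01 for aromatic and −0.18 to −0.12 for tryptophan genes. It ran from −0.37 to −0.17 for histidine genes. For serine and glycine genes it ran from −0.30 to −0.09, against −0.03 in the main fit. The ranges were −0.07 to 0.04 for proline, −0.14 to −0.03 for branched-chain, −0.14 to −0.07 for lysine and −0.20 to 0.00 for transaminase genes. The aromatic median was −0.09 with upper-quartile and −0.03 with quantile scaling, and the lysine median −0.23 with unsummed rows, where only the larger Gcdh row counts. By values at 2 decimals 29 of the 43 members kept their sign in all alternatives; Gcdh, at −0.00, ran from −0.25 with unsummed rows to 0.07 without WT replicate 2 and was 0.02 with quantile scaling. The sign turned without WT replicate 1 in Gstz1 (−0.01), Sds (−0.30), Amt (0.11), Bckdha (−0.13), Pccb (−0.01) and Agxt (−0.14), and without WT replicate 2 in Fah (0.01), Prodh2 (0.02), Bckdhb (0.08) and Got1 (0.19). It turned without KO replicate 1 in Gstz1 (−0.08) and Aldh4a1 (−0.01), and without KO replicate 2 in Tat (−0.30), Sds (−0.31), Amt (0.02), Hibch (0.02), Pccb (−0.01) and Agxt (−0.06). At the other end of the range over the libraries left out, the difference was 0.71 for Sds, −0.16 for Prodh2, 0.09 for Aldh4a1 and Pccb, 0.27 for Bckdha, −0.26 for Hibch, −0.36 for Got1 and 0.16 for Agxt. With upper-quartile scaling the sign turned in Gstz1 (−0.01) and Agxt (−0.02). The cause was not tested.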
